A study of Homo sapiens with 6 samples.

Results

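Deoxynucleotides, the building blocks of DNA, are made and balanced by a small set of enzymes, and 9 of their genes are described here in a breast cancer line after loss or inhibition of the kinase CDK16. The 9 genes were taken by exact symbol from the 41471 gene symbols of the knockdown experiment and the 34157 of the drug experiment. They are RRM1, RRM2 and RRM2B (subunits of ribonucleotide reductase), TYMS, DUT and DTYMK (synthesis of thymidine nucleotides), TK1 and DCK (salvage of nucleosides) and SAMHD1 (breakdown of deoxynucleoside triphosphates). All 9 reached a mean of 1 CPM (counts scaled to library size) in both experiments, and were tested with the other genes that did, 15295 and 15655 in all.

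Ribonucleotide reductase turns ribonucleotides into deoxyribonucleotides. RRM1 is its large catalytic subunit, RRM2 its cell-cycle-bound small subunit, and RRM2B an alternative small subunit that serves resting and damaged cells. TYMS methylates dUMP to dTMP, DUT supplies dUMP and clears dUTP, and DTYMK phosphorylates dTMP. TK1 and DCK phosphorylate thymidine and deoxycytidine taken up from outside, and SAMHD1 cuts deoxynucleoside triphosphates back to nucleosides. Several of these genes, RRM2, TYMS and TK1 among them, are known to be transcribed under E2F control as cells enter S phase, and E2F target genes are a group that the study followed in these libraries.

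The libraries came from MDA-MB-231, an established, mesenchymal-like triple-negative breast cancer line. In the knockdown experiment, stable lines made with lentivirus carried a scramble hairpin (scramble), or one of 2 hairpins against CDK16 (CDK16-sh1 and CDK16-sh2). In the drug experiment the cells received DMSO or the kinase inhibitor rebastinib (Reb) at 1 μM or 5 μM for 48 h. Rebastinib also acts on kinases other than CDK16, such as TIE2. Every condition had 1 library, so no difference between 2 conditions has a replicate check, and a hairpin's values are those of 1 line. Intervals given for counts and ratios are 95% Clopper-Pearson intervals, which cover counting error only. Because RNA was pooled from many cells, fewer cells in S phase and less of a transcript per cell cannot be told apart.

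The total count lay between 25838443 and 50303269. Mitochondrial transcripts took 16.2% of the counts with CDK16-sh2 and 16.4% at 5 μM Reb, against 7.19% to 11.3% in the other 4 libraries. VIM, CD44, AXL, CAV1 and EGFR, markers of this line, were present in every library, although CAV1 had only 3.95 RPKM (reads scaled to gene length and library size) and EGFR 4.81 at 5 μM Reb. ESR1, PGR, CDH1, the leukocyte gene PTPRC and the liver gene ALB stayed at or below 0.174 RPKM, ERBB3 and the endothelial gene PECAM1 below 1 RPKM, and EPCAM lay between 1.55 and 4.30 RPKM. CDK16 itself had 3223 counts in scramble, 1360 with CDK16-sh1 and 846 with CDK16-sh2, log2 differences of −1.52 and −1.82. In the drug experiment CDK16 had 4996 counts in DMSO, 4609 at 1 μM and 2797 at 5 μM, and its log2 difference at 5 μM was 0.27 (interval 0.20 to 0.34) under TMM scaling and −0.42 under scaling by library totals, so its direction there depends on the scaling.

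The promoters were searched for letters that E2F factors, the NF-Y factor (CCAAT) and cell-cycle repressor complexes (TTTGAA) are known to read, since E2F targets were a group the study followed. RefSeq windows from 250 bases before to 50 bases after each annotated start (GRCh38.p14) were found for 8 of the 9 genes, 13 windows in all, and not for RRM2B. The letters TTTNNCGC with each N being G or C, on either strand, stood in the windows of DCK, DUT and TYMS, 3 of the 8 genes, against 3.99% of all 27305 genes with a window. The box CCAAT, on either strand, stood in those of RRM1, RRM2, DTYMK, TK1 and SAMHD1, 5 of 8, against 39.7% of genes. The letters TTTGAA, on either strand, were found in those of RRM1 and DUT, against 18.2% of genes. The E2F letters are shown in capitals below with 30 bases of each promoter on the gene's own strand, followed by the CCAAT box nearest the start of RRM2, whose windows held no E2F letters of this form.
DCK, chr4:70993659-70993688, plus strand, site beginning 21 bases after the start: gctgcctccgcGCGCCAAAgtcaaaccccg
DUT, chr15:48332152-48332181, plus strand, sites beginning 42 and 27 bases before the start: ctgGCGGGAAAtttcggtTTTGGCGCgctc
TYMS, chr18:657603-657632, plus strand, site beginning 39 bases before the start: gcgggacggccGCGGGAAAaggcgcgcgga
RRM2, chr2:10122661-10122690, plus strand, box beginning 66 bases before the start: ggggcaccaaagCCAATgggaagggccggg
These are matches of letters, and binding was not measured here.

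The levels of the 9 genes, compared per length as the authors' RPKM, ran from 2.32 to 130 RPKM in scramble and from 2.17 to 130 RPKM in DMSO. In scramble TYMS was highest with 130 RPKM, followed by TK1 with 75.6, RRM1 with 59.9, RRM2 with 52.8, DTYMK with 27.6, DUT with 23.04, DCK with 10.5, SAMHD1 with 9.46 and RRM2B with 2.32. In DMSO the order was TYMS with 130 RPKM, RRM1 with 57.6, TK1 with 36.1, RRM2 with 29.2, DUT with 15.9, DCK with 14.8, DTYMK with 13.5, SAMHD1 with 8.25 and RRM2B with 2.17. TYMS thus led in both controls and RRM2B was last in both. Over the 6 libraries TYMS was highest in 5, and TK1 was highest in the CDK16-sh1 library, at 123 RPKM against 92.9 for TYMS. The lowest level belonged to RRM2B in 4 libraries, to DCK with CDK16-sh2 and to RRM2 at 5 μM Reb. Every pair of neighbours in these orders differed beyond counting error except DUT and SAMHD1 with CDK16-sh2, whose ratio was 1.08 (interval 0.974 to 1.19).

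**Figure D1:**
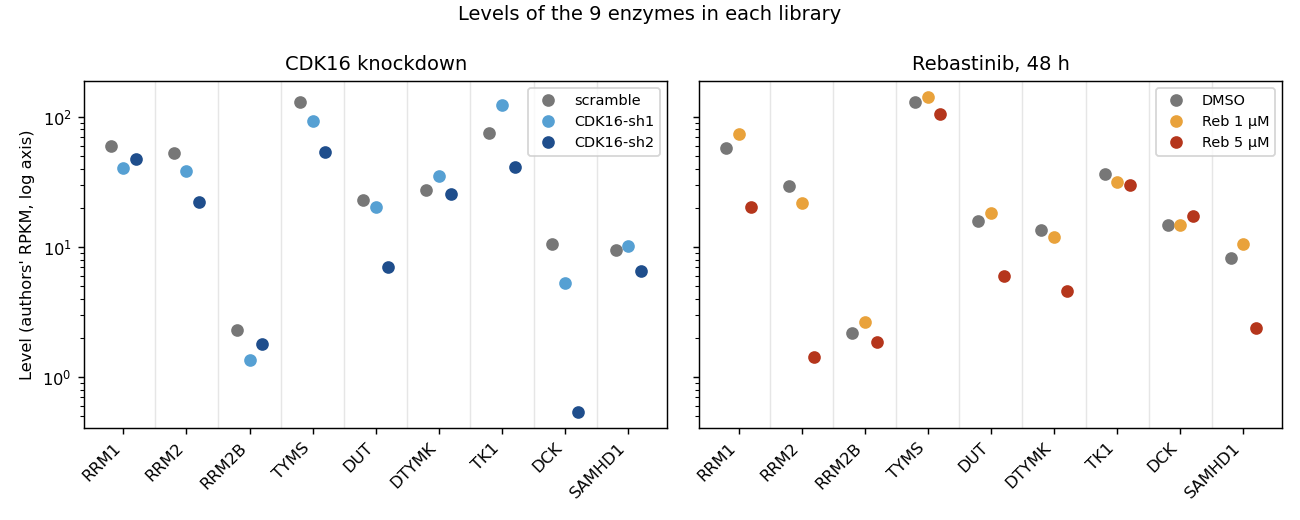
Level of each of the 9 genes in each of the 6 libraries, in the authors' RPKM on a log axis, with the knockdown experiment on the left and the drug experiment on the right; each point is 1 library. DCK with CDK16-sh2 (0.541 RPKM) and RRM2 at 5 μM Reb (1.44 RPKM) lie far below the other libraries of their experiment.

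The question for the knockdown was how the enzymes stood when CDK16 was reduced by either hairpin. Values called log2 differences are log2 ratios of TMM-scaled CPM of a treated library to its control, negative where the treated library was lower, a gene being called when it was at least 2-fold lower or higher. With CDK16-sh1, 0 of the 9 genes were called lower and 0 higher, where 6.86% and 4.33% of all genes were. With CDK16-sh2, 4 of the 9 were called lower, RRM2, TYMS, DUT and DCK, where 7.62% of all genes were, and 0 were called higher, where 2.2% of all genes were. The median over the 9 genes was −0.44 with CDK16-sh1 and −0.69 with CDK16-sh2, and that over all genes tested was −0.00 and 0.02. No member was called lower with both hairpins, where 1.44% of all genes were. Thus 6 of the 9 were below scramble with CDK16-sh1 and 8 of 9 with CDK16-sh2, where 50.1% and 48.6% of all genes were. Both hairpins were compared with the same control library.

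Within ribonucleotide reductase, the subunits differed between the hairpins. RRM2 (chromosome 2, 10122328 to 10131419, plus strand) had 6761 counts in scramble, 6043 with CDK16-sh1 and 3035 with CDK16-sh2. With CDK16-sh1 the log2 difference was −0.44 (interval −0.49 to −0.39), and with CDK16-sh2 it was −1.05 (interval −1.11 to −0.99), so the second value reached the 2-fold line only just. RRM1 (chromosome 11, 4094707 to 4138876, plus strand) had 6467, 5410 and 5494 counts in the same order. Its log2 differences were −0.53 (interval −0.59 to −0.48) and −0.13 (interval −0.18 to −0.08). Of the 2, RRM1 therefore had the lower log2 difference with CDK16-sh1 and RRM2 with CDK16-sh2. RRM2B (chromosome 8, 102204502 to 102239118, minus strand) had 332, 239 and 275 counts. Its log2 differences were −0.75 (interval −0.997 to −0.507) and −0.16, the latter with an interval of −0.40 to 0.07 that includes 0.

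Ratios within a library need no scaling between libraries. The ratio of RRM2 to RRM1, per length, was 0.881 (interval 0.852 to 0.912) in scramble and 0.942 (interval 0.908 to 0.977) with CDK16-sh1. With CDK16-sh2 it was 0.466 (interval 0.445 to 0.487). RRM2B per RRM1 was 0.0387, 0.0333 and 0.0377, and the 3 intervals overlapped. The small subunit RRM2 thus stood lower against the large one only with CDK16-sh2 among these 3 libraries, and RRM2B did not separate from RRM1 beyond counting error.

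The pair of primers with which the study followed RRM2 by quantitative PCR shows which part of the transcript that assay reads.
Forward: gtggagcgatttagccaagaa
Reverse: cacaaggcatcgtttcaatgg
The forward primer lies at chr2:10124717-10124737 (GRCh38) in exon 5 and the reverse primer at chr2:10126892-10126912 in exon 6, both in coding sequence, with 172 bases between the outer ends in the spliced transcript. The forward primer matched 6 of 13 annotated RRM2 transcripts in GENCODE 29, the pseudogene RRM2P2 and the overlapping locus AC007240.1, which was not analysed here. The reverse primer matched 8 of the 13 transcripts and AC007240.1, but not RRM2P2. Pseudogene rows named after RRM2 held at most 8 counts in any library, so they take few of the counts described here. By quantitative PCR the study reported RRM2 as significantly lower after CDK16 knockdown and after Reb treatment.

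Among the genes of thymidylate synthesis, TYMS (chromosome 18, 657604 to 673578, plus strand) had 8293 counts in scramble, 7329 with CDK16-sh1 and 3670 with CDK16-sh2. Its log2 differences were −0.45 (interval −0.50 to −0.41) and −1.07 (interval −1.13 to −1.01), close to those of RRM2. DUT (chromosome 15, 48331011 to 48343373, plus strand) had 2187, 2387 and 715 counts. Its log2 differences were −0.15 (interval −0.23 to −0.07) and −1.50 (interval −1.63 to −1.38), the second a 2.84-fold lower value. DUT per TYMS was 0.177 in scramble, 0.219 with CDK16-sh1 and 0.131 with CDK16-sh2, with 3 intervals that did not overlap, so the 2 genes did not differ in step. DTYMK (chromosome 2, 241675742 to 241686991, minus strand) had 1745, 2762 and 1736 counts and log2 differences of 0.39 and 0.10. DTYMK was the only one of the 9 above scramble with both hairpins, but its sign turned to −0.10 with CDK16-sh2 under scaling by library totals and to −0.09 with CDK16-sh1 once trends on GC content and length were removed.

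The salvage kinases lay farthest apart. DCK (chromosome 4, 70992538 to 71030914, plus strand) had 877 counts in scramble, 545 with CDK16-sh1 and 48 with CDK16-sh2. With CDK16-sh1 the log2 difference of DCK was −0.96 (interval −1.12 to −0.81), and with CDK16-sh2 it was −4.04 (interval −4.54 to −3.67), a 16.4-fold lower value. Of all genes tested, 0.00654% had a lower value in that library. TK1 (chromosome 17, 78174075 to 78187233, minus strand) had 3636, 7324 and 2096 counts. Its log2 differences were 0.73 (interval 0.68 to 0.79) and −0.69 (interval −0.77 to −0.61), on opposite sides of scramble. DCK per TK1 was 0.139 in scramble, 0.0429 with CDK16-sh1 and, with CDK16-sh2, 0.0132 (interval 0.00971 to 0.0176), and its order was that of the DCK differences.

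MOB1B, a gene on the same strand whose exons share 199 bases with DCK, had 941 counts in scramble, 685 with CDK16-sh1 and 773 with CDK16-sh2. DCK per MOB1B, per length, was 2.54, 2.17 and 0.169 (interval 0.124 to 0.227), so the low value of DCK with CDK16-sh2 was not shared by its neighbour. SAMHD1 (chromosome 20, 36890229 to 36951843, minus strand) had 1231, 1626 and 911 counts and log2 differences of 0.12 and −0.33. RRM2 per SAMHD1, the small reductase subunit over the enzyme that breaks its products down, was 5.58 in scramble, 3.78 with CDK16-sh1 and 3.39 with CDK16-sh2, lower with both hairpins and with intervals that did not reach that of scramble.

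**Figure D2:**
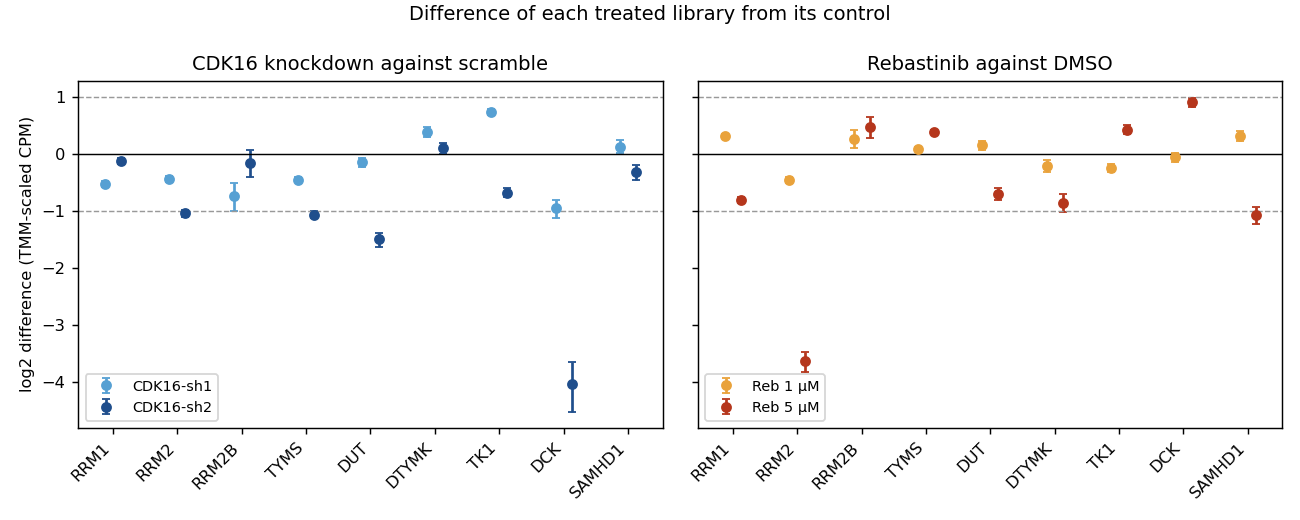
Log2 difference of each gene in each treated library against its control, from TMM-scaled CPM; points are single libraries, bars are 95% intervals for counting error, and dashed lines mark 2-fold. DCK with CDK16-sh2 (−4.04) and RRM2 at 5 μM Reb (−3.64) are the lowest values, and TK1 lies on opposite sides of 0 with the 2 hairpins.

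Transcripts richer in GC tended to have higher log2 differences with CDK16-sh1 (Pearson r of 0.48 over 12940 genes, which are not independent), while r was 0.13 for CDK16-sh2. The members richest in GC, TK1 with 62.8% and DTYMK with 59.7%, were those with the highest values with CDK16-sh1, and RRM2B and DCK, with 36.4% and 38.8%, had the lowest. With the trends on GC content and length removed, TK1 stood at 0.13 and RRM2B at −0.29 with CDK16-sh1, whereas DCK with CDK16-sh2 stood at −3.91 and DUT at −1.44. RRM2 with CDK16-sh2 then stood at −0.97, just inside 2-fold.

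The 3 genes whose promoters held the E2F letters, DCK, DUT and TYMS, were all among the 4 called lower with CDK16-sh2. Of the other 5 genes with a window, RRM2 was called there and RRM1, DTYMK, TK1 and SAMHD1 were not. With CDK16-sh1 and at both Reb doses, none of DCK, DUT and TYMS was called under TMM. At 5 μM under TMM, DCK and TYMS were above DMSO, at 0.90 and 0.38, and DUT was below it, at −0.71. The share of all genes with these letters that were called was not computed, and no test was made of this arrangement.

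Compared directly, CDK16-sh2 was at least 2-fold below CDK16-sh1 in 3 of the 9 genes, DUT, TK1 and DCK, where 8.68% of all genes were, and above it in 0, where 6.53% were. The differences were −1.35 for DUT, −1.42 for TK1 and −3.08 for DCK. RRM2 and TYMS differed by −0.61 each, while RRM1 was higher with CDK16-sh2 by 0.41.

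The only test the knockdown design allows took both hairpins as 1 group against scramble, so that the difference between the hairpins stands for the spread. In this test 0 genes of all were called (0% lower and 0% higher by the quasi-likelihood test of edgeR, adjusted after Benjamini and Hochberg, at an adjusted p of at most 0.05 and 2-fold), with 382 genes of all tested at an unadjusted p under 0.05. DESeq2 called 0 as well, with 233 such genes. DCK was the only member with an unadjusted p under 0.05, in edgeR and in DESeq2, with an adjusted p of 0.794 and 1.00. The adjusted p of RRM2 and of TYMS was 1.00 in edgeR.

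The drug experiment asked the same of 2 doses. At 1 μM Reb, 0 of the 9 genes were called lower and 0 higher, where 1.92% and 1.28% of all genes were. At 5 μM, 2 of the 9 were called lower, RRM2 and SAMHD1, where 27.2% of all genes were, so the share of members, 22.2%, lay near that of all genes. No member was called higher, where 23.6% of all genes were. Under scaling by library totals 5 of the 9 were called lower, with RRM1, DUT and DTYMK added, where 43.4% of all genes were, and 0 higher, where 11.7% were. That scaling moved the median of all genes by −0.69, so every value at 5 μM is read against this shift. The median over the 9 genes was 0.08 at 1 μM and −0.71 at 5 μM, and that over all genes was 0.00 and −0.07. No member was called lower at both doses, where 1.08% of all genes were. Transcripts richer in GC tended to have lower values at both doses (Pearson r of −0.30 and −0.22 over 13202 genes, which are not independent). With trends on GC content and length removed, RRM2 stood at −0.54 at 1 μM and −3.64 at 5 μM. RRM2B then stood at 0.07 and 0.03, and DTYMK at −0.003 and −0.57.

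RRM2 stood apart from the other subunits. DMSO-treated cells had 7275 RRM2 counts, and those given 1 μM and 5 μM had 5352 and 269. The log2 difference was −0.47 (interval −0.52 to −0.42) for the low dose and −3.64 (interval −3.83 to −3.47) for the high dose, a 12.5-fold lower value. Of all genes tested, 1.18% had a lower value than RRM2 at 5 μM and 10.9% at 1 μM. RRM1 had 12101, 15286 and 3193 counts, with log2 differences of 0.31 (interval 0.28 to 0.35) and −0.81 (interval −0.87 to −0.76). RRM2B had 605, 734 and 388 counts, with log2 differences of 0.25 (interval 0.10 to 0.41) and 0.47 (interval 0.28 to 0.65), the latter turning to −0.22 under library totals. RRM1 was thus higher at 1 μM and lower at 5 μM and RRM2 lower at both.

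The ratio of RRM2 to RRM1, per length, was 0.507 (interval 0.492 to 0.522) in DMSO, 0.295 (interval 0.286 to 0.305) with 1 μM Reb and 0.0710 (interval 0.0625 to 0.0805) with 5 μM. That of RRM2 to RRM2B was 13.5 (interval 12.4 to 14.7), 8.16 (interval 7.56 to 8.83) and 0.776 (interval 0.662 to 0.909). The alternative small subunit therefore had more counts per length than RRM2 at 5 μM Reb and in no other of the 6 libraries. RRM2B per RRM1 was 0.0376 in DMSO, 0.0362 at 1 μM and 0.0915 (interval 0.0821 to 0.102) at 5 μM. The level of RRM2B was 2.17, 2.68 and 1.86 RPKM, and that of RRM2 29.2, 21.9 and 1.44 RPKM. The 2 controls themselves differed in RRM2 per RRM1, with 0.881 in scramble and 0.507 in DMSO, and were never compared as a treatment.

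**Figure D3:**
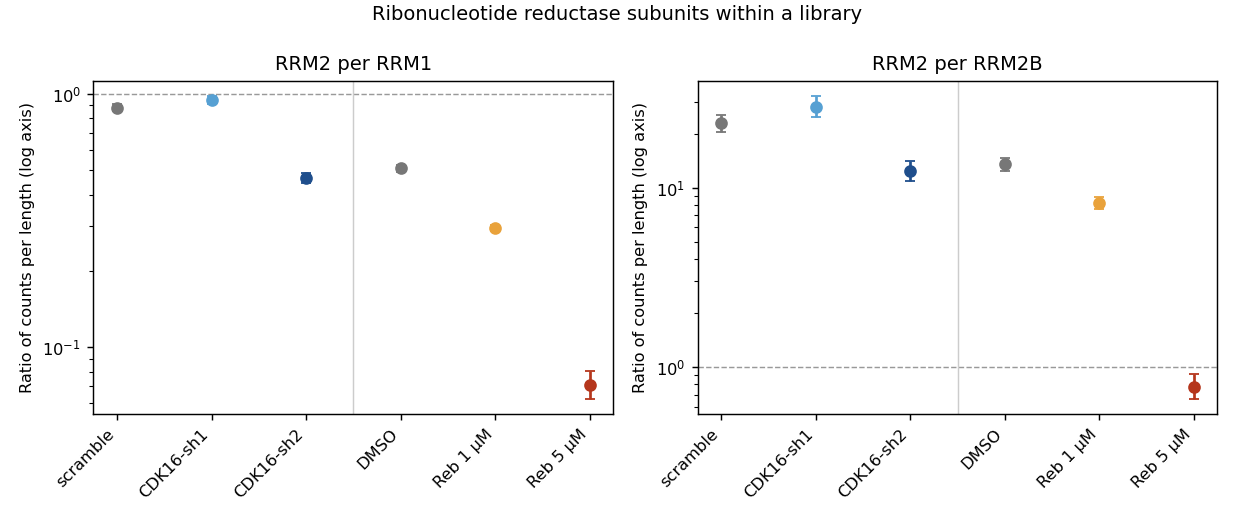
Ratio of counts per length of RRM2 to RRM1 (left) and of RRM2 to RRM2B (right) in each library, on log axes, with 95% intervals for counting error; the dashed line marks equal counts per length and the vertical line parts the experiments. RRM2 per RRM2B lies between 8.16 and 28.3 in 5 libraries and at 0.776 at 5 μM Reb.

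The thymidylate genes did not follow RRM2. TYMS had 16161 counts in DMSO, 17378 at 1 μM and 9731 at 5 μM, with log2 differences of 0.08 (interval 0.05 to 0.11) and 0.38 (interval 0.34 to 0.41), the latter −0.31 under library totals. DUT had 2931, 3295 and 833 counts, with log2 differences of 0.15 (interval 0.07 to 0.22) and −0.71 (interval −0.82 to −0.60). DTYMK had 1666, 1457 and 423 counts, with log2 differences of −0.22 (interval −0.32 to −0.11) and −0.87 (interval −1.03 to −0.71). DUT and DTYMK were thus both below DMSO at 5 μM, under TMM and under library totals, while the direction of TYMS depended on the scaling. DUT per TYMS, which does not, was 0.122 in DMSO, 0.127 at 1 μM and 0.0576 (interval 0.0536 to 0.0618) at 5 μM.

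Of the salvage kinases, TK1 had 3381, 2888 and 2095 counts, with log2 differences of −0.25 (interval −0.32 to −0.18) and 0.42 (interval 0.34 to 0.50), the latter −0.27 under library totals. DCK had 2409, 2345 and 2087 counts, with log2 differences of −0.06 (interval −0.14 to 0.02) and 0.90 (interval 0.82 to 0.99). With trends on GC content and length removed, DCK stood at 0.32 at 5 μM. DCK was the only one of the 9 genes above DMSO at 5 μM under both TMM and library totals, with 0.21 under the latter. DCK per TK1 was 0.411 in DMSO, 0.468 at 1 μM and 0.574 (interval 0.540 to 0.611) at 5 μM. DCK had its lowest level with CDK16-sh2 and its highest, 17.2 RPKM, at 5 μM Reb. DCK per MOB1B was 4.27, 3.58 and 4.204, so DCK and its overlapping neighbour stood in nearly the same proportion in DMSO and at 5 μM.

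For SAMHD1 the counts were 2090 in DMSO, 2642 at 1 μM and 457 at 5 μM, and the log2 differences 0.31 (interval 0.23 to 0.40) and −1.08 (interval −1.23 to −0.94). RRM2 per SAMHD1 was 3.54, 2.06 and 0.598 (interval 0.513 to 0.697), so the ratio was lowest at 5 μM even though SAMHD1 was itself called lower there.

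**Figure D4:**
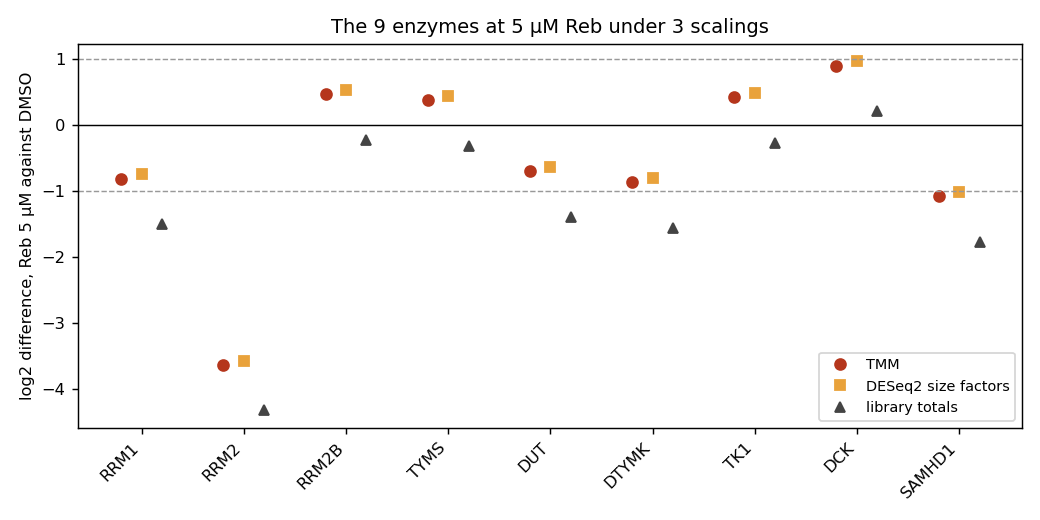
Log2 difference of each gene at 5 μM Reb against DMSO under 3 ways of scaling the libraries: TMM (circles), DESeq2 size factors (squares) and library totals (triangles); dashed lines mark 2-fold. RRM2B, TYMS and TK1 lie above 0 under TMM and DESeq2 and below it under library totals, and RRM2 lies below −3.5 under each.

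Between the doses, 5 μM was at least 2-fold below 1 μM in 3 of the 9 genes, RRM1, RRM2 and SAMHD1, where 25.8% of all genes were, and above it in 0, where 22.8% were. The differences were −1.13 for RRM1, −3.18 for RRM2 and −1.40 for SAMHD1. With both doses as 1 group against DMSO, so that the gap between the doses stands for the spread, edgeR's quasi-likelihood test called 1 gene lower (0.00639%) and 11 higher (0.0703%), none of them a member. No member had an unadjusted p under 0.05 in that test or in DESeq2. When log2(dose + 1) was a linear term, RRM2 was the only member called, with a fitted difference of −3.83 at 5 μM and an adjusted p of 0.000218 by the same test, where 11.1% of all genes were called lower. A p of this kind is for the slope on log2(dose + 1), judged against the scatter of 3 libraries around the line, and has no replicate behind it. The adjusted p of the other 8 genes in that fit was 0.164 or more.

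The genes around these enzymes were described with 6 lists of 99 genes, of which 88 were tested in the knockdown and 87 in the drug experiment. In CDK16-sh1, 5 of 88 were called lower and 4 higher, and with CDK16-sh2, 8 lower and 1 higher, shares near those of all genes. None was called the same way with both hairpins. The transcription factor E2F8, the most reduced of the list genes with CDK16-sh2, had 604, 464 and 103 counts and log2 differences of −0.65 and −2.42, and was named after its values were seen. DHODH, an enzyme of pyrimidine synthesis chosen likewise, had 369, 523 and 107 counts, with log2 differences of 0.23 and −1.66. E2F8 was thus below scramble with both hairpins, as RRM2 and TYMS were, and DHODH with only 1 of them.

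At 1 μM Reb, 1 of 87 list genes was called lower and 0 higher. At 5 μM, 30 of 87 were called lower and 17 higher, where 27.2% and 23.6% of all genes were. Under library totals 44 were called lower and 9 higher, where 43.4% and 11.7% of all genes were. The list with the lowest median was de novo pyrimidine synthesis, at −1.83, where 5 of 6 genes were called lower and 1 higher. These were CAD, the enzyme of the first steps, with 3730 counts in DMSO, 3228 at 1 μM and 201 at 5 μM (−3.10), DHODH (−2.23), UMPS (−1.84), CTPS2 (−1.82) and CTPS1 (−1.10), all named after their values were seen. CMPK1, which phosphorylates pyrimidine monophosphates, was the 1 higher, at 1.09, and at 0.40 under library totals.

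The 15 regulators of the enzymes had a median of −1.51, with 9 called lower and 0 higher, where 27.2% and 23.6% of all genes were. Under library totals 13 were called lower, where 43.4% of all genes were. All 15 were below DMSO under both scalings. Under TMM 51.7% of all genes were, and under library totals the median of all genes was itself −0.75. CCNF, the cyclin F that directs RRM2 protein to degradation, had 1450, 1111 and 37 counts, a value of −4.14 at 5 μM. E2F1 had 1018, 1202 and 107 counts (−2.13) and E2F8 had 959, 1119 and 40 (−3.44). E2F1 and E2F8 were thus lower at 5 μM. Among RRM2, TYMS and TK1, the enzymes named above as E2F targets, RRM2 was called lower there and TYMS and TK1 were not. The study also names CDK2, a gene of this list, as directly regulated by Rb-E2F signalling. CDK2 had 4474, 3527 and 381 counts and was called lower at 5 μM, at −2.44. A link of these values to E2F control was not tested. CDKN1A, which encodes the CDK inhibitor p21, was the only list gene called the same way in both treated libraries of an experiment, with 1666 counts in DMSO, 670 at 1 μM and 270 at 5 μM and log2 differences of −1.33 (interval −1.47 to −1.21) and −1.51 (interval −1.71 to −1.33).

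The other lists moved less evenly at 5 μM. Of all genes, 27.2% were called lower and 23.6% higher there under TMM, and 43.4% and 11.7% under library totals. De novo purine synthesis had 5 of 12 genes called lower and 1 higher, with a median of −0.54. The thymidylate and folate list had 3 of 15 lower and 4 higher, with a median of 0.41 that turned to −0.28 under library totals, with 4 lower and 1 higher. The breakdown list had 4 of 15 lower and 2 higher, with a median of −0.09. The salvage list had 4 of 24 lower and 9 higher under TMM, and 8 lower and 5 higher under library totals. Its median of 0.58 turned to −0.11 under library totals. Its highest values were those of UCK2, a uridine and cytidine kinase (2102, 1754 and 5863 counts, 2.59), NME2, a nucleoside diphosphate kinase (2.35), and GUK1, the guanylate kinase (2.02). TK2 and DGUOK, the mitochondrial counterparts of TK1 and DCK, had values of −0.90 and −0.10 at 5 μM, and neither was called under TMM. Under library totals TK2, at −1.59, was past 2-fold and DGUOK, at −0.79, was not.

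**Figure D5:**
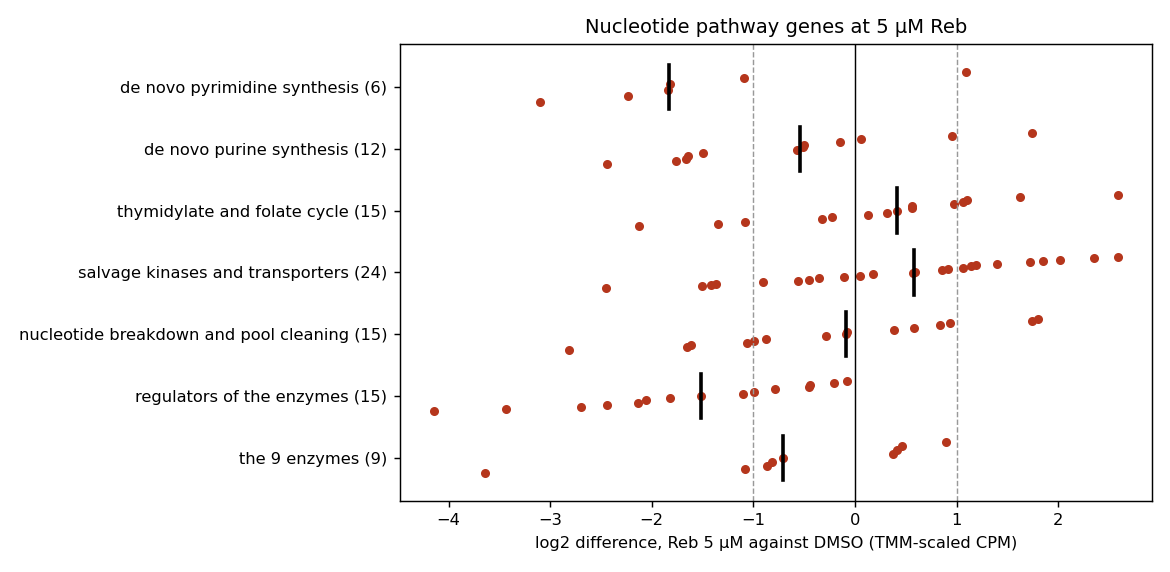
Log2 difference at 5 μM Reb against DMSO (TMM-scaled CPM) of each tested gene of the 6 pathway lists and of the 9 enzymes; each point is 1 gene, black bars are medians, numbers in parentheses are genes, and dashed lines mark 2-fold. The pyrimidine list (median −1.83) and the regulators (median −1.51) lie lowest, and the 9 enzymes (median −0.71) spread from −3.64 to 0.90.

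The genes nearest to RRM2, TYMS and RRM2B were sought among the 10554 genes that reached a mean of 5 CPM in both experiments, by Euclidean distance over the 4 log2 differences, 1 per treated library. Nearest to RRM2 were BRCA1 at a distance of 0.281, INSR at 0.313 and CKAP2L at 0.394. For example, BRCA1, a DNA repair gene, had values of −0.42 and −0.80 with the hairpins and −0.39 and −3.54 with the doses. The genes nearest to TYMS were ENPP1 at 0.168, XRN1 at 0.196 and FN1 at 0.220, and those nearest to RRM2B were RALGAPA1 at 0.154, DHX36 at 0.157 and DNAJB14 at 0.159. No other member was among the 3 genes nearest to any of the 9. With only 3 of 10554 genes taken for each, this says little about whether the members moved together. The closest member to RRM2 was SAMHD1, at rank 2214 and a distance of 2.83. The closest to DCK was TYMS, at rank 282 but a larger distance of 3.06, DCK having few genes near it (the nearest at 1.21). The 4 values share 2 controls, and the distances are given as a description.

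The strand and multi-read settings of the counting were not given in the sources used here, so rows that overlap a member bear on its counts. RRM1-AS1 shares 63 exonic bases with RRM1 on the other strand and held 0.234 to 0.310 counts per RRM1 count over the 6 libraries. ENOSF1 shares 465 bases with TYMS on the other strand and held 0.572 to 0.679 counts per TYMS count, and TYMSOS, sharing 183, held 0.110 to 0.196. ENOSF1 thus stood in a narrow proportion to TYMS in all libraries, and without a stated strand setting the reads of the overlap cannot be told apart. RP11-154J22.1, antisense to DUT with 533 shared bases, had 33 to 201 counts, and TLDC2, antisense to SAMHD1 with 205, had 14 to 123. RRM2, RRM2B, DTYMK and TK1 shared no exonic base with another of the rows analysed here. Rows named as pseudogenes of a member held at most 8 counts in the knockdown experiment and 44 in the drug experiment, the latter for DUTP1 at 5 μM, where DUT had 833.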

How the data were processed

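Stranded mRNA libraries of MDA-MB-231 cells (6 libraries, 1 per condition) had been sequenced on a HiSeq X 10. According to the submitters' processing notes, reads were trimmed with Trimmomatic and counted with featureCounts of Subread 1.5.1 on GRCh38; the aligner, the annotation and the strand setting are not given in the sources used here. The deposited tables hold the authors' whole-number counts per gene symbol, without normalization, and the authors' RPKM values, which divide the same counts by gene length and library total.

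Counts were scaled by TMM in edgeR 4.0.16 (R 4.3.3). Log2 differences were taken from CPM (prior count 2) for genes that reached a mean of 1 CPM, and a gene was called at 2-fold, the fold part of the study's threshold; its FDR part was used only in the tests below, since each condition had 1 library. The 95% intervals are exact binomial (Clopper-Pearson), from a gene's counts in the 2 libraries compared. Reads are not independent molecules, so intervals cover counting error only. The tests took both treated libraries as 1 group against the control (quasi-likelihood test of edgeR, adjusted after Benjamini and Hochberg, threshold 0.05 and 2-fold). Alternatives were DESeq2 1.42.0, library totals, RPKM with 0.1 added, prior count 0.5, filters of none and 5 CPM, thresholds of 1.5-fold and 4-fold, dose as a linear term, and removal of trends on GC content, length or mean expression. GC content was known for 84.6% and 84.3% of tested genes.

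The members and lists were chosen with earlier results of these data known. Named besides the 9 members were CDK16, list genes called the same way in both treated libraries (at most 3 per list and direction), the 3 genes nearest to RRM2, TYMS and RRM2B, and overlapping rows; other list genes were named after their values were seen. Promoters are from RefSeq, exons from GENCODE 29 and primers from the study's primer list.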

Additional observations from a re-analysis of the deposited data

Results flagged for a closer look

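In 6 cases a member stood above its control in 1 treated library and below it in the other, with both intervals wholly on their side of the control. DCK also changed sides between the doses, but its interval at 1 μM (−0.14 to 0.02) reached both sides of DMSO. None of these differences was tested, since each condition had 1 library; intervals cover counting error. TK1 was lower in CDK16-sh2 than in CDK16-sh1 (log2 difference −1.42, interval −1.49 to −1.35), with 0.73 and −0.69 against scramble. SAMHD1 differed likewise by −0.45 (interval −0.57 to −0.33), with 0.12 and −0.33. Between 5 μM and 1 μM Reb, RRM1 differed by −1.13 (interval −1.18 to −1.07), DUT by −0.85 (interval −0.96 to −0.74) and SAMHD1 by −1.40 (interval −1.55 to −1.26), each being above DMSO at 1 μM and below it at 5 μM. TK1 differed the other way, by 0.67 (interval 0.59 to 0.75), with −0.25 at 1 μM and 0.42 at 5 μM. With trends on GC content and length removed, TK1 stood at 0.01 at 1 μM. Under library totals TK1 was below DMSO at both doses, and the other 5 cases kept their opposite signs. The interval of SAMHD1 with CDK16-sh1 then reached both sides of scramble (−0.01 to 0.20).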

How the results depend on the processing

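No paired analysis was possible because each condition had 1 library and no result compares paired samples. The 2-fold calls of RRM2, TYMS, DUT and DCK in CDK16-sh2 and of RRM2 and SAMHD1 at 5 μM Reb held under DESeq2 size factors, library totals, RPKM and a prior count of 0.5, and RRM2 lost its call in CDK16-sh2 with trends on GC content and length removed. Members called lower at 5 μM numbered 5 under library totals, RPKM or a 1.5-fold threshold, 4 with trends on mean expression and length removed, 3 with trends on GC content and length removed (RRM1 added) and 1 (RRM2) at 4-fold; in CDK16-sh2 1 (DCK) remained at 4-fold; in CDK16-sh1 0 became 1 (DCK) with trends on mean expression and length removed and 2 at 1.5-fold. At 1.5-fold, 1 member was called higher in CDK16-sh1 and 1 at 5 μM. Of all genes, 43.4% were called lower at 5 μM under library totals. The share of all genes is not given for RPKM, the other thresholds or the removed trends. The member counts there show only how the calls depend on the setting.

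Without a filter, genes called lower and higher numbered 2730 and 2172 with the first hairpin, 3222 and 1897 with CDK16-sh2, 2267 and 2440 at 1 μM, and 8286 and 8070 at 5 μM, more genes being tested. At a mean of at least 5 CPM they numbered 661 and 364, 758 and 154, and 122 and 42 in the first 3 libraries. Library totals gave 152 higher in CDK16-sh2, and 6792 lower and 1835 higher at 5 μM; list genes called higher were then 0 in CDK16-sh2 and 9 at 5 μM. The test of both doses called 4 lower in DESeq2, 0 lower and 3 higher without a filter, 0 and 0 under library totals, and 1744 lower and 2088 higher with dose as a linear term; the cause was not tested. With 1 library per condition, differences between cultures cannot be told apart from those of treatment.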
